A study of Rattus norvegicus with 6 samples.

Results

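The metabolic and xenobiotic nuclear receptors of the liver were followed here in rats that had received a hepatocarcinogen, with and without the green tea catechin epigallocatechin gallate (EGCG). The members are Nr1i2, Nr1i3, Nr1h3, Nr1h4, Nr0b2, Nr5a2, Ppara, Pparg, Rxra and Ahr, taken by gene symbol from the array's annotation, which gave 1 probe for each. They are 10 of the 9193 named genes tested. In the EGCG group, 3 male Wistar rats (EGCG_228, EGCG_234 and EGCG_236) drank 0.02% EGCG from week 13 to week 18. In the water group, 3 such rats (water_224, water_227 and water_237) drank plain water over the same weeks. Every rat of both groups also received the carcinogen DEN (diethylnitrosamine, 50 mg/kg by injection every week) through 18 weeks and was killed in week 19, and no rat without DEN was analysed here. Total RNA of non-tumor liver was measured on bead arrays, 1 array for each rat. Levels are log2 intensities, each difference is EGCG minus water, and a gene passed the test at an adjusted p under 0.05 in limma's fit over all probes.

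These receptors let the liver read its own chemistry. Most of them are ligand-activated transcription factors that bind DNA as partners of RXR alpha, the product of Rxra. The pregnane X receptor PXR (Nr1i2) and the constitutive androstane receptor CAR (Nr1i3) sense drugs and toxins. The liver X receptor LXR alpha (Nr1h3) senses oxysterols, the farnesoid X receptor FXR (Nr1h4) bile acids, and PPAR alpha and PPAR gamma (Ppara and Pparg) fatty acids. SHP (Nr0b2) has no DNA-binding domain and represses other receptors. FXR induces it, and it restrains bile acid synthesis by acting on LRH-1 (Nr5a2). The aryl hydrocarbon receptor (Ahr) belongs to another protein family, pairs with ARNT and induces the Cyp1 enzymes. Much of their control is by ligand, so that a transcript level is not a measure of receptor activity.

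The promoters of SHP, LRH-1 and LXR alpha are printed because they hold the letters that such receptors recognise, and they belong to members described below. They come from RefSeq (build GRCr8), which had an entry for 9 of the 10 members, and run from 250 bases before to 50 bases after the gene's start, in the direction of transcription. Capitals mark AGGTCA, the core element of this receptor family, and CAAGGNCA, the extended element of LRH-1, each searched on both strands. These can overlap where N is T. The Nr0b2 window is chr5:151062910-151063209 (plus strand), the Nr5a2 window chr13:50984889-50985188 (minus strand) and the Nr1h3 window chr3:97623180-97623479 (minus strand).
Nr0b2: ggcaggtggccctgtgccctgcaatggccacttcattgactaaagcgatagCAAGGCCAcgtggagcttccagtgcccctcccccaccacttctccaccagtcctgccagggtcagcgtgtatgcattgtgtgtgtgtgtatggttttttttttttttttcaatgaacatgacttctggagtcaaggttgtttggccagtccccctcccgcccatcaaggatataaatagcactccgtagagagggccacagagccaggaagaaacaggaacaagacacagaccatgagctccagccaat
Nr5a2: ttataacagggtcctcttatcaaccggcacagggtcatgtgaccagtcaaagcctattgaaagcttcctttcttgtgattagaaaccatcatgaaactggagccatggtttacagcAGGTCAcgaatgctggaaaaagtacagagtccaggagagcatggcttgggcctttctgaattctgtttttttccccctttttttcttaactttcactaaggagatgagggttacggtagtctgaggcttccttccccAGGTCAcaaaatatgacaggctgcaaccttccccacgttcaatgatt
Nr1h3: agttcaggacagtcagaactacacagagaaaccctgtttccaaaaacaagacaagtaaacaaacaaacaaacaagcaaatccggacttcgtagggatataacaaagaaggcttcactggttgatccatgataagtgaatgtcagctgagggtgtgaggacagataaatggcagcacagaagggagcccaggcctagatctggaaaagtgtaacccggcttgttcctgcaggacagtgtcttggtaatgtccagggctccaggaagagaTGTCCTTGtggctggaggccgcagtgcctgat
CAAGGNCA occurred once in the Nr0b2 window, at position -199 from the start, and once on the opposite strand of the Nr1h3 window, from base 19 after it. AGGTCA occurred at 2 places in the Nr5a2 window, and both lay outside any CAAGGNCA. Of the 33469 rat promoter windows in that table, 6.55% held CAAGGNCA and 16.2% held AGGTCA. Pairs of AGGTCA, head to tail with 1 or 4 bases between or facing each other with 1 base between, were in 0 member windows, and TNGCGTG, the core read by AHR and ARNT, was in that of Ppara (4.89% of all windows). A match is a description of letters and not a shown binding site.

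Of the 10 receptors, 0 passed the test between EGCG and water (limma, adjusted p from 0.479 for Pparg to 0.978 for Ppara), where 0.566% of all named genes passed. The group mean was higher with EGCG for 8 receptors and lower for 2, Pparg and Ahr, with differences from -0.28 to 0.36. The median difference was 0.16 over the members and 0.0037 over all named genes. For 1 member, Pparg, the unadjusted p was under 0.05, and 11.6% of all genes had such a p (5.28% higher and 6.31% lower with EGCG). The EGCG and water rats did not overlap for 2 receptors, Nr1h3 (higher with EGCG) and Pparg (lower with EGCG), a share near the 16.5% of all named genes without overlap (8.25% higher and 8.23% lower with EGCG). The 95% intervals of the differences ran from -0.56 (Pparg) to 0.85 (Nr1h4), so that changes up to 1.81-fold lie inside the widest of them and were not excluded by these 6 arrays.

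**Figure D1:**
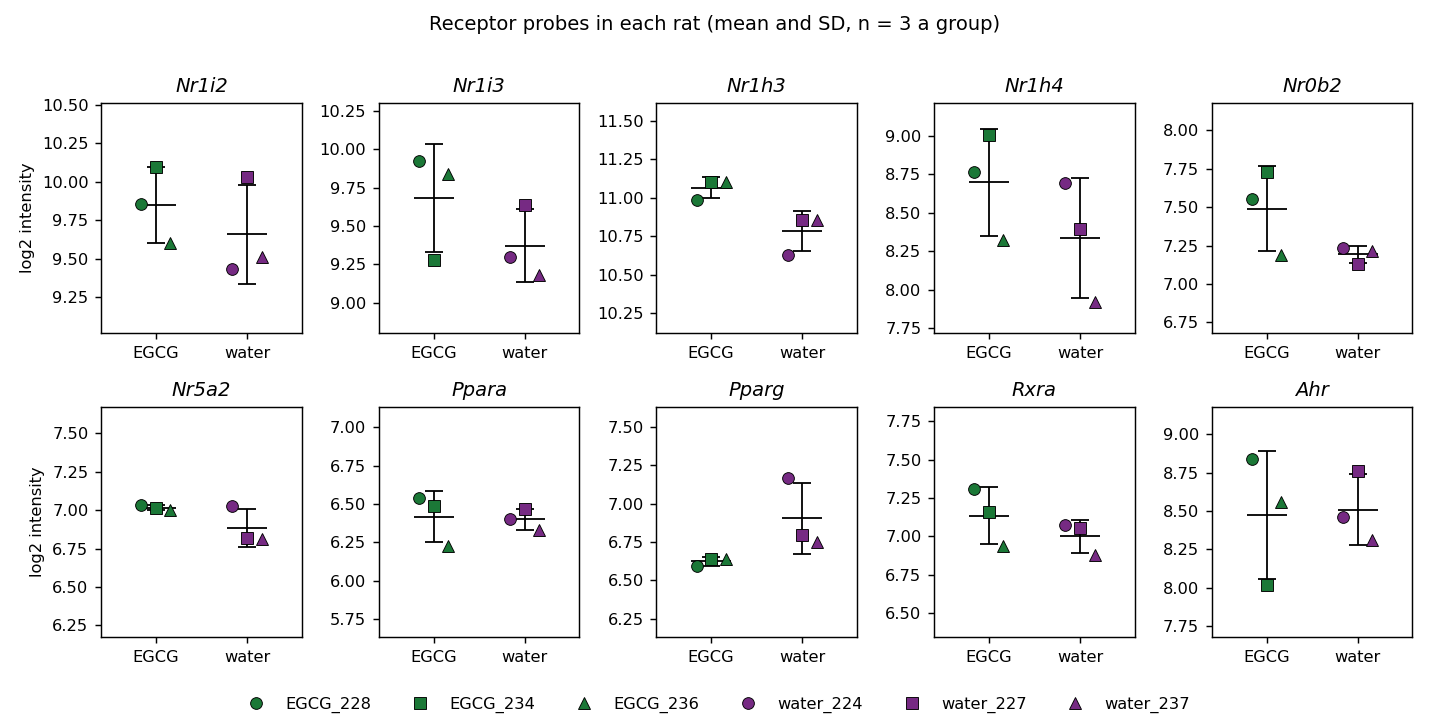
Log2 intensity (y axis, each panel spanning the same 1.5 log2 units) of each receptor's probe in the EGCG rats (green, left) and the water rats (purple, right), with symbols for single rats and bars for mean and SD (n = 3 a group). Nr1h3 lies higher and Pparg lower in all EGCG rats, and the groups overlap for the other 8 receptors.

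Among the drug sensors, Nr1i2, PXR, stood at 9.85, 10.10 and 9.60 in EGCG_228, EGCG_234 and EGCG_236, against 9.43, 10.03 and 9.51 in water_224, water_227 and water_237. The rat with the highest value was an EGCG rat and the next a water rat, so that the groups overlapped. The difference was 0.19 (SE 0.20, limma adjusted p = 0.821). It was 0.0677 without EGCG_234, 0.0782 without water_224 and 0.12 without water_237, but 0.32 without EGCG_236 and 0.38 without water_227. Nr1i3, CAR, stood at 9.92, 9.28 and 9.84 in the EGCG rats, in the same order, against 9.30, 9.64 and 9.18 in the water rats. Here EGCG_234 lay among the water rats, while the other EGCG rats were the highest of the 6. The difference was 0.31 (SE 0.20, limma adjusted p = 0.674), and it was 0.51 without EGCG_234 and 0.19 without EGCG_228. PXR and CAR thus placed EGCG_234 at opposite ends of its group.

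Ahr, the dioxin receptor, stood at 8.84, 8.02 and 8.56 in the EGCG rats, against 8.46, 8.76 and 8.31 in the water rats. The highest and the lowest of the 6 values were both EGCG rats, EGCG_228 and EGCG_234. The difference was -0.04 (SE 0.21, limma adjusted p = 0.976), and it was 0.19 without EGCG_234 and 0.09 without water_227, so that its direction rested on single rats.

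With CAR, the sterol receptor Nr1h3, the bile acid receptor Nr1h4 and its target Nr0b2 had the largest positive differences among the members. Nr1h3, LXR alpha, stood at 10.99, 11.11 and 11.11 in the EGCG rats, against 10.63, 10.86 and 10.85 in the water rats. All EGCG rats were above all water rats. Mean levels were 11.07 ± 0.07 in EGCG rats and 10.78 ± 0.13 in water rats (SD over 3 rats), a 1.22-fold difference (log2 0.28, SE 0.15, limma adjusted p = 0.58). Its unadjusted p was 0.0895. Nr1h4, FXR, stood at 8.76, 9.01 and 8.32 in the EGCG rats, against 8.70, 8.40 and 7.92 in the water rats. EGCG_234 was highest and water_237 lowest, with overlap between. The difference was 0.36 (SE 0.22, limma adjusted p = 0.653), the largest of the 10 receptors, and it was 0.15 without water_237, 0.21 without EGCG_234 and 0.55 without EGCG_236.

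Nr0b2, the FXR target SHP whose promoter is printed above, stood at 7.55, 7.73 and 7.19 in the EGCG rats, against 7.24, 7.13 and 7.21 in the water rats. EGCG_228 and EGCG_234 were above every water rat, and EGCG_236 lay among them. The water rats spanned 0.11 and the EGCG rats 0.54 on the log2 scale. The difference was 0.30 (SE 0.15, limma adjusted p = 0.541), and it was 0.45 (adjusted p = 0.133) without EGCG_236 and 0.18 (adjusted p = 0.91) without EGCG_234. FXR and SHP shared the order of the EGCG rats, with EGCG_234 highest and EGCG_236 lowest, and PXR had that order too. The water rats did not share an order, since water_237 was lowest for FXR and water_227 for SHP. Nr5a2, LRH-1, stood at 7.04, 7.02 and 7.00 in the EGCG rats, against 7.03, 6.82 and 6.81 in the water rats. The EGCG rats were within 0.03 of each other, and water_224 reached their level. The difference was 0.13 (SE 0.11, limma adjusted p = 0.764).

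Ppara encodes the receptor that drives fatty acid oxidation in the fasted liver, and its probe lay near the bulk of the array. The deposited intensity was 120, 119 and 97.1 in the EGCG rats and 113, 118 and 103 in the water rats, where the median over all probes of an array ran from 112 to 120.5. On the log2 scale Ppara stood at 6.54, 6.49 and 6.23 with EGCG, against 6.40, 6.47 and 6.33 with water, and the difference was 0.02 (SE 0.10, limma adjusted p = 0.978). The files hold no detection p-values, so that no probe can be called absent. Pparg, whose product drives fat storage in adipocytes and is also made by macrophages, stood at 6.59, 6.64 and 6.64 in the EGCG rats, against 7.17, 6.79 and 6.75 in the water rats. All EGCG rats were below all water rats, and water_224 stood apart from the other water rats. Mean levels were 6.62 ± 0.03 in EGCG rats and 6.90 ± 0.23 in water rats (SD over 3 rats), a difference of -0.28 (SE 0.13, unadjusted p = 0.0463 and adjusted p = 0.479 in limma). It was -0.14 without water_224, and the deposited intensities were 124, 129 and 120 with EGCG and 189, 142 and 127 with water.

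Rxra, the shared partner of most of these receptors, stood at 7.31, 7.16 and 6.94 in the EGCG rats, against 7.07, 7.05 and 6.88 in the water rats. EGCG_228 and EGCG_234 were the highest of the 6, and EGCG_236 lay between the water rats. The difference was 0.13 (SE 0.13, limma adjusted p = 0.804), and it was 0.0477 without EGCG_228, 0.0739 without water_237 and 0.24 without EGCG_236. Counted over the members, EGCG_228 was above the water mean for 9 of the 10 receptors, EGCG_234 for 7 and EGCG_236 for 4, against 6 for water_224, 7 for water_227 and 2 for water_237. The lowest value of the 6 rats was in water_237 for 4 receptors and in water_224 for 2. The spread over all 6 rats ran from 0.22 (Nr5a2) to 1.09 (Nr1h4) on the log2 scale, with a median of 0.59 over the receptors and 0.43 over all named genes.

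**Figure D2:**
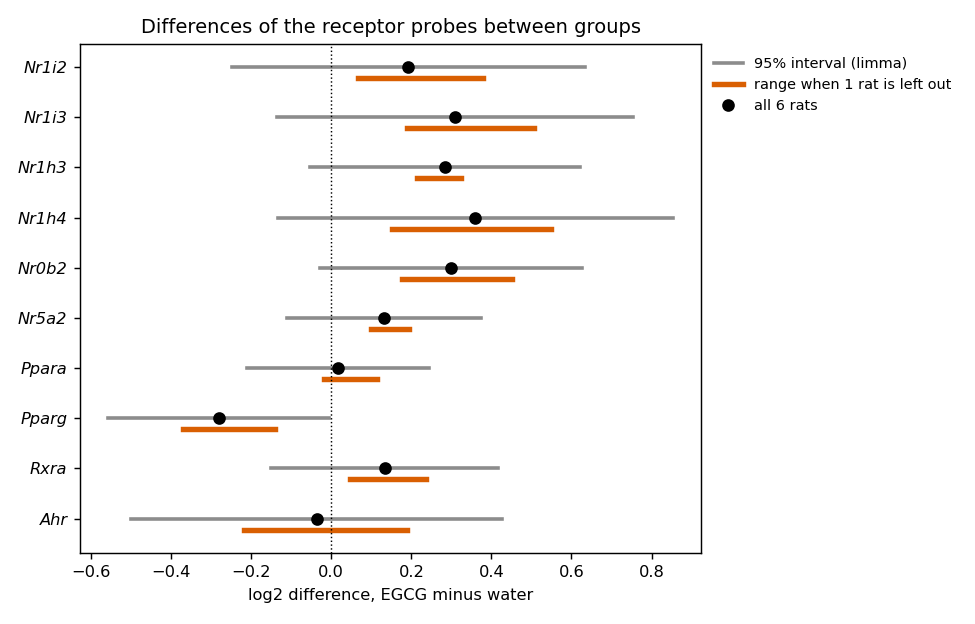
Log2 difference, EGCG minus water (x axis), of each receptor (y axis), with all 6 rats (black points), limma's 95% interval (grey) and the range of the difference when 1 rat is left out (orange; for Ppara without the omission of EGCG_228, where its probe fell below the filter). Of the 10 receptors, Ahr and Ppara change sign when 1 rat is left out, and the others keep theirs.

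The rest of the nuclear receptor family and the receptors' partners gave no call. Of 38 other nuclear receptors listed, 28 were on the array under these symbols and 20 passed the intensity filter. Among the 20, 0 rose, 0 fell, and the median difference was -0.01. Thrb, the thyroid hormone receptor of hepatocytes, had the smallest p. It stood at 7.98, 8.08 and 7.79 in the EGCG rats, against 7.63, 7.48 and 7.33 in the water rats, with no overlap (difference 0.47, SE 0.14, limma adjusted p = 0.222). Groups did not overlap for 3 of the 20 higher with EGCG and for 2 lower, where 8.25% and 8.23% of all named genes did so. The 2 lower ones, named here for that reason, were Rarb (-0.32) and Thra (-0.22), the other thyroid hormone receptor gene. Nr2f6, an orphan receptor, differed by 0.38 (adjusted p = 0.453) and Rxrg, the third RXR gene, by 0.57 (adjusted p = 0.328). Rxrb differed by 0.22 (adjusted p = 0.661) at its brighter probe and by -0.04 at its second probe. Nr4a3, an immediate early receptor gene, differed by -0.51 (adjusted p = 0.403), with water_224 at 7.56 above the other 5 rats (6.42 to 6.85). Hnf4a, which keeps hepatocyte identity, differed by -0.04 (adjusted p = 0.979).

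Among 13 measured partners and coregulators, 0 rose and 0 fell, with a median difference of 0.05. The coactivator Ncoa2 differed by 0.26 (SE 0.10, limma adjusted p = 0.407) and the deacetylase Hdac3, which works with nuclear receptor corepressors, by 0.24 (adjusted p = 0.582). These 2 of the 13 had no overlap between the groups, both higher with EGCG. Of all named genes 16.5% had no overlap, 8.25% of them higher with EGCG when counted over all genes. The probe of Ncoa2 was dim, with a water mean of 6.33 below the filter's log2 6.39, and the stricter filter left it out. Hsp90aa1, a chaperone of unliganded AHR, differed by -0.24 and Prox1, a corepressor of LRH-1, by -0.09. The probes of Arnt, the AHR partner, and of Ppargc1a, a coactivator of PPAR alpha, were below the filter.

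Known target genes of the receptors had a wider spread between rats than the receptors did. That spread over the 6 rats had a median of 1.32 over 16 measured PXR and CAR targets, 1.10 over 14 FXR targets and 0.92 over 34 PPAR alpha targets, against 0.59 over the receptors. For the other lists it was 1.02 (LRH-1), 0.99 (AHR), 0.87 (LXR) and 0.64 (PPAR gamma), the last close to the receptors. Receptors and targets were not matched for intensity. Target genes that passed the test numbered 0 of 16 for PXR and CAR, 0 of 14 for FXR, 0 of 34 for PPAR alpha, 0 of 5 for LRH-1 and 0 of 7 for AHR. For LXR 1 of 14 fell and for PPAR gamma 1 of 10 fell, and both counts are the same gene, Lpl. Several genes stand on more than 1 list, and Nr0b2 is itself a listed target of FXR and LRH-1. Against these counts, 0.446% of all named genes fell and 0.12% rose.

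**Figure D3:**
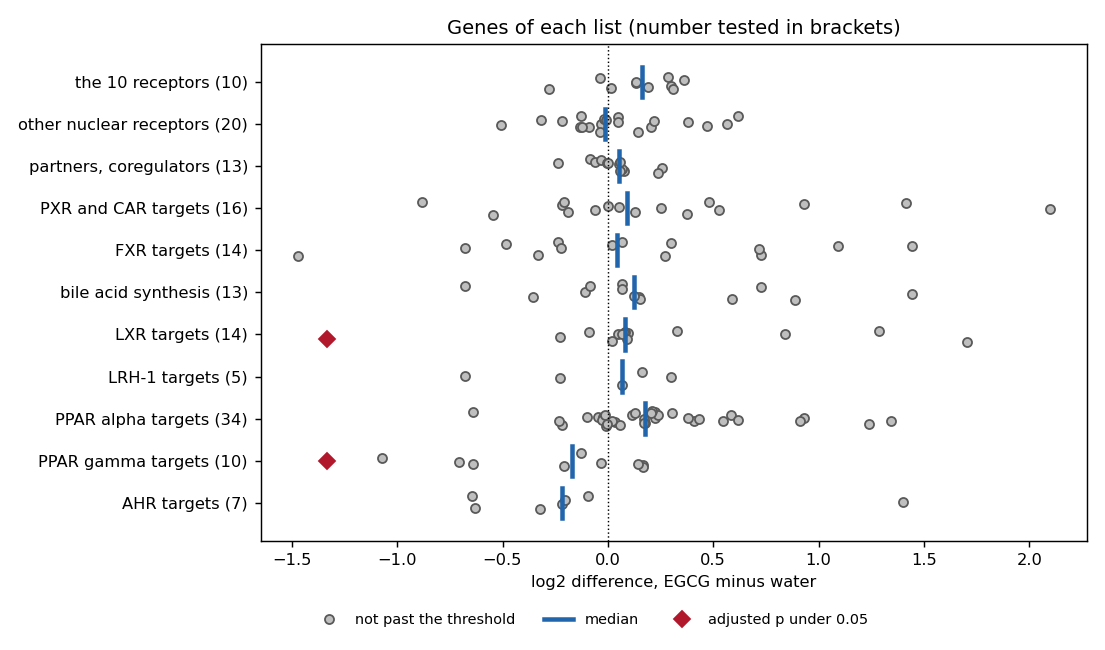
Log2 difference, EGCG minus water (x axis), of every measured gene of each list (y axis), with the list's median in blue and genes past the threshold as red diamonds. Lpl, at -1.33, is the diamond in both the LXR and the PPAR gamma list, and the receptors lie closer to 0 than many of the targets.

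Among the 16 PXR and CAR targets, the median difference was 0.09, with 10 above 0 and 6 below, where 51.1% of all named genes were above 0. The 3 largest differences were in Cyp3a genes, and none of the 16 passed the test. Cyp3a2, a male-specific steroid and drug hydroxylase of rat liver, stood at 13.12, 13.53 and 10.93 in the EGCG rats, against 10.97, 9.65 and 10.67 in the water rats. EGCG_236 lay just below water_224. The difference was 2.10 (SE 0.57, limma adjusted p = 0.181). Cyp3a23-3a1, the classical PXR-induced gene of the rat, stood at 11.72, 11.43 and 10.21 with EGCG, against 9.71, 9.32 and 10.08 with water, without overlap (difference 1.41, SE 0.34, adjusted p = 0.13), and its second probe differed by 0.77. Cyp3a9 differed by 0.93 (adjusted p = 0.317) and Cyp2b15, of the CAR-responsive Cyp2b subfamily, by 0.48 (adjusted p = 0.501). Cyp3a18 had no difference between group means (0.0028), yet stood at 12.81, 8.85 and 12.10 in the EGCG rats, with EGCG_234 below all water rats (11.14 to 11.33). Gadd45b, a stress gene induced through CAR, differed by -0.88 (adjusted p = 0.376), with water_224 at 8.66 far above the rest. Members of the Cyp2b, Cyp3a and Cyp4a subfamilies are similar in sequence, and a probe may read several of them.

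FXR targets had a median difference of 0.04, with 8 of 14 above 0, and genes of bile acid synthesis one of 0.12, with 9 of 13 above 0. The FXR list mixes genes that FXR induces, such as Nr0b2, with genes restrained through SHP, such as Cyp7a1. Its median and its count above 0 therefore have no single expected direction. Slc27a5, the bile acid CoA ligase, stood at 12.06, 12.59 and 10.47 in the EGCG rats, against 10.21, 10.37 and 10.21 in the water rats, without overlap (difference 1.44, SE 0.41, limma adjusted p = 0.209). Baat, which joins bile acids to glycine or taurine, differed by 0.73 (adjusted p = 0.112), also without overlap, and Slc10a1, the sodium-dependent bile acid importer, by 1.09 (adjusted p = 0.24). Amacr and Hsd3b7, enzymes of the bile acid pathway, differed by 0.89 (adjusted p = 0.144) and 0.59 (adjusted p = 0.303). Of 13 measured genes of bile acid synthesis, 5 had groups that did not overlap, all higher with EGCG, where 8.25% of all named genes did so, and 0 passed the test.

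Cyp7a1, the rate-limiting enzyme that SHP and LRH-1 control, stood at 9.61, 10.12 and 11.23 in the EGCG rats, against 9.97, 9.87 and 10.93 in the water rats (difference 0.07, SE 0.38, limma adjusted p = 0.977). Cyp8b1, the sterol 12-hydroxylase that makes cholic acid, stood at 10.03, 10.91 and 8.24 with EGCG, against 10.67, 11.36 and 9.19 with water (difference -0.68, SE 0.63, adjusted p = 0.796). In both groups the rat with the highest Cyp7a1, EGCG_236 or water_237, had the lowest Cyp8b1 of its group and the lowest Nr1h4. Kng1, a kininogen gene known as an FXR target in humans, differed by -1.47 (adjusted p = 0.181) and has near-identical copies in the rat. Scarb1, the HDL receptor and an LRH-1 target, differed by 0.16 (adjusted p = 0.815).

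LXR targets had a median difference of 0.08, with 11 of 14 above 0 and Lpl, which is described with the PPAR gamma targets, the lowest. Srebf1, the lipogenic transcription factor that LXR induces, stood at 9.84, 9.58 and 9.43 in the EGCG rats, against 9.16, 8.10 and 9.06 in the water rats. Its groups did not overlap, as those of Nr1h3 did not (difference 0.84, SE 0.26, limma adjusted p = 0.238). Scd, the stearoyl-CoA desaturase, differed by 1.71 (adjusted p = 0.286) and Thrsp, a lipogenic protein, by 1.28 (adjusted p = 0.267), both with water_237 at or above an EGCG rat. The sterol exporters Abca1 and Abcg5 differed by 0.09 (adjusted p = 0.961) and -0.23 (adjusted p = 0.817). The probe of Abcg8 was below the filter.

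PPAR alpha targets had a median difference of 0.18, with 24 of 34 above 0, where 51.1% of all named genes were above 0. Their median level relative to the water mean was 0.37 in EGCG_228, 0.48 in EGCG_234 and -0.17 in EGCG_236, so that EGCG_236 went the other way. Cpt1a, the gatekeeper of mitochondrial fatty acid oxidation, stood at 10.27, 10.99 and 9.92 in the EGCG rats, against 9.70, 9.58 and 9.12 in the water rats, without overlap (difference 0.93, SE 0.26, limma adjusted p = 0.201). Cyp4a2 and Cyp4a3, fatty acid omega-hydroxylases, differed by 1.34 (adjusted p = 0.338) and 0.91 (adjusted p = 0.462). Both overlapped, since EGCG_236 was the lowest of the 6 rats. Fabp1, the liver fatty acid binding protein, differed by 0.59 (adjusted p = 0.239) and the desaturase Fads2 by 1.24 (adjusted p = 0.23). Cyp4a1, Pdk4, Angptl4 and Fgf21, which respond to PPAR alpha ligands and fasting, differed by 0.12, 0.06, -0.0050 and -0.01 (adjusted p from 0.86 to 0.999). The second probe of Cyp4a1 differed by -0.09, and that of Angptl4, which was below the filter, by -0.11.

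PPAR gamma targets, like Pparg itself, had lower means with EGCG for the most part. Their median difference was -0.17, and 7 of 10 measured genes were below 0. Lpl, lipoprotein lipase, fell to 10.18, 9.44 and 10.11 in the EGCG rats, against 11.24, 11.25 and 11.22 in the water rats, a 2.52-fold difference (log2 -1.33, SE 0.20, limma adjusted p = 0.0231). The water rats were nearly equal and all EGCG rats lay below them. Cfd, adipsin, differed by -0.71 (adjusted p = 0.183), Fabp4, the adipocyte and macrophage fatty acid binding protein, by -1.07 (adjusted p = 0.227) and the fatty acid transporter Cd36 by -0.64 (adjusted p = 0.396). Cidec, a lipid droplet protein, differed by 0.17 (adjusted p = 0.822). Lpl missed the threshold with median scaling (limma adjusted p = 0.0585). It also did so when EGCG_228 was left out (0.0621), or EGCG_234 (0.0738), water_227 (0.0898) or water_237 (0.0709).

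Summed markers of several other cell types were also lower in the EGCG rats. The summed intensity of 7 measured adipose and pancreas markers was 2271 to 2679 in the EGCG rats and 3516 to 6078 in the water rats, with 0 of 7 past the test. This list shares Adipoq, Fabp4 and Cfd with the PPAR gamma list. Fabp4 and Cfd make up most of the sum in every rat, so that it largely restates their values given above. Of the other markers, Cpa1 differed by -1.23, Cela1 by -0.70, Adipoq by -0.13, Cpb1 by 0.04 and Ctrb1 by -0.02. Of the defining adipocyte genes, Lep and Retn were below the filter and Adipoq stood at 6.24 to 6.58 with EGCG and 6.54 to 6.61 with water. The sum of 6 endothelial markers was 2095 to 2272 with EGCG and 2702 to 3167 with water (1 fell, Vwf). That of 11 stellate cell and fibroblast markers was 5472 to 6758 and 9469 to 11890 (2 fell, Vim and Dcn). Of all named genes 0.446% fell. Groups did not overlap for 4 of the 6 and 8 of the 11, all lower with EGCG, where 8.23% of all named genes did so. The sum of 10 macrophage markers was 12080 to 14110 with EGCG and 14000 to 19360 with water (0 passed). The macrophage sums overlapped between the groups. Of these markers 8 had a lower mean with EGCG and 2 a higher one, among them Marco (1.03, limma adjusted p = 0.131), which had the smallest p of that list. The sum of 8 bile duct markers was 3763 to 5245 with EGCG and 6317 to 7617 with water (0 passed), and that of 8 lymphocyte markers 795 to 841 and 781 to 842 (0 passed). Their part in the lower Pparg and Lpl values was not tested. In whole tissue, fewer cells of a type and less RNA per cell cannot be told apart. All 14 hepatocyte markers on the array passed the filter, with sums of 238200 to 271600 with EGCG and 248500 to 268000 with water, and 0 passed the test. Single hepatocyte markers went both ways, 9 above 0 and 5 below. The smallest p values were those of Tat (-1.17, limma adjusted p = 0.203) and Ttr (0.53, adjusted p = 0.295).

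AHR targets had a median difference of -0.22, with 6 of 7 below 0 and Cyp1a2 above it. Cyp1b1, which is found mainly outside hepatocytes, stood at 6.48, 6.68 and 6.90 in the EGCG rats, against 7.40, 7.12 and 7.43 in the water rats, without overlap (difference -0.63, SE 0.14, limma adjusted p = 0.0955). Cyp1a2, the hepatocyte enzyme that metabolises caffeine, stood at 9.67, 10.72 and 8.24 with EGCG, against 8.02, 8.44 and 7.96 with water (difference 1.40, SE 0.47, adjusted p = 0.284). EGCG_236 again lay among the water rats. Cyp1a1, the most inducible AHR target, differed by -0.20 (adjusted p = 0.864), Aldh3a1 by -0.64 (adjusted p = 0.487) and the quinone reductase Nqo1 by -0.32 (adjusted p = 0.678). The rat with the lowest Ahr, EGCG_234, had the highest Cyp1a2.

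**Figure D4:**
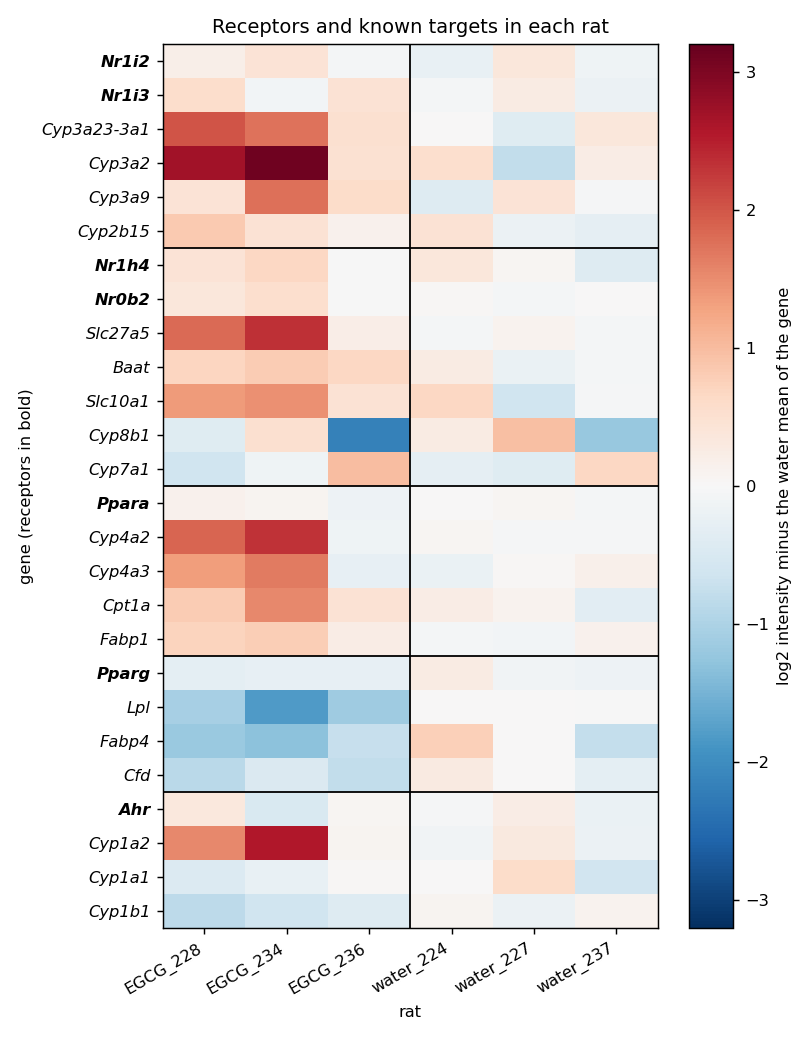
Log2 intensity minus the gene's mean over the water rats (colour) for receptors (bold) and known targets (y axis) in each rat (x axis, EGCG left of the line), in blocks for PXR and CAR, for FXR and SHP, for PPAR alpha, for PPAR gamma and for AHR. Cyp3a2, Slc27a5, Cyp4a2 and Cyp1a2 are red in EGCG_228 and EGCG_234 and pale in EGCG_236, while the receptors stay pale in all rats.

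Counts of called targets changed with single rats. Lpl, the 1 target called with all rats, also passed without EGCG_236 (-1.43, limma adjusted p = 0.0141). Pearson's r of its array over the tested probes averaged 0.9795 with the other EGCG arrays and 0.9794 with the water arrays. EGCG_236 was thus the EGCG rat nearest the water rats in these same data, so that leaving it out favours larger differences in advance. The calls that follow are therefore no independent support. Named genes past the test numbered 52 with all rats, 8 without EGCG_228 and 9 without EGCG_234. Without EGCG_236, 1.71% of named genes passed the test (158 of 9213, with 0.923% higher and 0.792% lower). Then 2 PXR and CAR targets rose, Cyp3a2 (2.87, limma adjusted p = 0.00722) and Cyp3a23-3a1 (1.87, adjusted p = 0.00722), and 4 of 34 PPAR alpha targets did, Cyp4a2 (2.08, adjusted p = 0.00104), Cyp4a3 (1.49, adjusted p = 0.00706), Fabp1 (0.76, adjusted p = 0.031) and Acadm (0.74, adjusted p = 0.0394), a dehydrogenase named because it passed here. Slc27a5 (2.04, adjusted p = 0.00218), Hsd3b7 (0.79, adjusted p = 0.0371) and Cyp1a2 (2.05, adjusted p = 0.0133) rose as well, and Cyp1b1 fell (-0.75, adjusted p = 0.0403). The receptors themselves still gave 0 calls, with the lowest adjusted p at 0.133 for Nr0b2. Leaving out water_237 instead gave other target calls, a rise of Scd (2.57, adjusted p = 0.00308) and Fads2 (1.74, adjusted p = 0.0481) and a fall of Kng1 (-2.08, adjusted p = 0.00256), where 0.087% of all genes rose and 0.283% fell. With array weights, 0.577% rose and 0.957% fell, again with 0 receptors, and Cyp3a2, Cyp3a23-3a1, Baat, Slc27a5, Lpl and Cyp1b1 passed.

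Pparg had the smallest p of the members, and the named genes nearest to its profile were sought by the root mean square distance of centred log2 values over the 6 arrays. The nearest were Plcd1 (0.0437), Ripply3 (0.049), Klf15 (0.0507), Rbms1 (0.0585) and Cnrip1 (0.0595), where the median distance of all named genes was 0.249. Each of these 5 genes was highest in water_224, as Pparg was, and 0 of them passed the test (limma adjusted p from 0.413 to 0.676). Small distances favour genes with a small spread.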

How the data were processed

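Total RNA of non-tumor liver from 6 rats, 3 given EGCG and 3 given water, was measured on bead arrays. The authors deposited intensities of 22523 probes on a linear scale, not background-subtracted (lowest value 53.4), and a second table of intensities whose normalization method is not given in the sources used here. Both tables lack detection p-values, negative controls and a batch column. The non-normalized intensities were corrected with limma's normexp (offset 50), log2 transformed and then quantile normalized. Probes below the 40th percentile of mean intensity (log2 6.39) were left out, which kept 13514 probes. The offset compresses differences of dim probes. Symbols came from the platform annotation, which named 13793 probes. A gene is represented by its brightest probe. EGCG minus water was fitted with lmFit and eBayes (intensity trend, two-sided) in R 4.3.3 and limma 3.58.1, with Benjamini-Hochberg adjustment over all probes kept. The fit was tested on simulated data. With 3 rats a group, the smallest two-sided p of an exact permutation test is 0.1. Array number limits the precision, and no depth applies.

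The members, gene lists and key genes were chosen with earlier results of these data known. The text names all members, up to 4 genes of each list with the smallest unadjusted p, any past the threshold, and preset key genes with a probe. The key genes Abcb11, Cyp2b1 and Cyp2b2 were not analysed here, and some items are not reported here. Alternatives covered background correction, normalization, filter, variance model, array weights, the authors' table, the mean over a gene's probes and each rat left out.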

Additional observations from a re-analysis of the deposited data

How the results depend on the processing

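The count of receptors that passed the test was 0 in all 17 alternatives, and so were those of other nuclear receptors, partners and LRH-1 targets. The stricter filter and the omission of EGCG_228 left out the probe of Ppara. No paired analysis was possible because the labels give no pairing between EGCG and water rats. The count of named genes past the threshold, 52 with all rats, was 34 without an intensity trend and 141 with array weights, and 8 to 158 when 1 rat was left out. With array weights, 2 PXR and CAR targets, 2 FXR targets, 2 bile acid genes and 1 AHR target passed. With median scaling, 0 LXR and 0 PPAR gamma targets passed. Over the omissions of 1 rat, the counts were 0 to 2 for PXR and CAR, 0 to 1 for FXR, 0 to 2 for bile acid synthesis, 0 to 1 for LXR, 0 to 4 for PPAR alpha, 0 to 1 for PPAR gamma and 0 to 2 for AHR targets.

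Directions of several differences were not stable when 1 rat was left out. Most of these differences were small, but that of Cyp8b1 was -0.68 with all rats. Ranges were -0.0186 to 0.11 for Ppara, -0.22 to 0.19 for Ahr, -0.32 to 0.45 for Abca1, -0.46 to 0.0416 for Abcg5, -0.30 to 0.55 for Angptl4, -0.52 to 0.093 for Cyp1a1, -0.77 to 1.21 for Cyp3a18, -0.39 to 0.42 for Cyp7a1, -1.30 to 0.0651 for Cyp8b1, -0.19 to 0.12 for Fgf21, -0.30 to 0.16 for Hnf4a, -0.15 to 0.39 for Pdk4 and -0.19 to 0.0406 for Prox1. The sign also turned with median scaling for Abca1 (-0.0113) and Pdk4 (-0.0174), with array weights for Angptl4 (0.25), Cyp3a18 (-0.0876), Cyp7a1 (-0.14) and Hnf4a (0.0539), with an offset of 16 for Cyp3a18 (-0.0198), and for Angptl4 without background correction (0.0174), with cyclic loess (0.0143) and with the authors' table (0.0139). The cause was not tested. The other 8 receptors kept their direction in every alternative run.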
